A study of Arabidopsis thaliana with 9 samples.

Results

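The Arabidopsis thaliana mitochondrial genome genes are taken here as all genes of the deposited read count table whose identifier starts with ATMG. They number 146 of the 33602 genes in the table. Of these, 38 had at least 10 counts in at least 3 of the 9 libraries and were tested, and 108 were not tested, among them 61 with no count in any library and 47 with some counts. The rule uses the identifier and no measured level, but the filter does use levels: 15 of the 38 passed it only because of the heat shock libraries, so they were bound to be higher there, and 23 would have passed without those libraries.

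The study compared leaves of wild-type Columbia (Col-0) plants under 3 temperature regimes, with 3 libraries per regime that its methods describe as biological replicates. In prolonged warming (PW), plants were moved 23 days after sowing to a day temperature of 28 °C and a night temperature of 23 °C, and stayed there for 7 days. In heat shock (HS), plants spent 6 h of the light period at 38 °C. Control plants (CK) were grown with days at 23 °C and nights at 18 °C, and leaves of all 3 regimes were taken 30 days after sowing. No mutant, transgene or other agent is involved, and the regimes differ in temperature, in length and in the stage at which they began.

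Plant mitochondria keep a small genome of their own that encodes some subunits of the respiratory chain complexes and of ATP synthase, parts of the cytochrome c maturation machinery, some ribosomal proteins, ribosomal RNAs and transfer RNAs, and many open reading frames of unknown function. The remaining subunits of these complexes are encoded in the nucleus and imported, so complexes I, III and IV and ATP synthase are assembled from products of both genomes, while complex II of Arabidopsis is encoded in the nucleus. Transcription is carried out by phage-type RNA polymerases encoded in the nucleus, and nuclear proteins splice, edit, trim and degrade the transcripts. In Arabidopsis Columbia, a large copy of the mitochondrial genome also lies near the centromere of chromosome 2, so that a read from a mitochondrial transcript can match a nuclear locus as well.

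The extent of this copy bears on every value below. RefSeq annotation of the TAIR10.1 assembly names 55 nuclear genes as counterparts of 53 of the 146 mitochondrial genome genes, either as the best protein match or as a pseudogene derived from the gene. These notes give a product for 24 of the 53 and none for the other 29, and 93 mitochondrial genome genes are in no such note and are called by identifier only. Over the aligned stretches, 28 of the 55 nuclear genes had no base that differed from the RefSeq mitochondrial sequence, the most that any had was 6, and the lowest identity was 99.03%. The RefSeq mitochondrial sequence is not certain to be the version in the TAIR10 genome to which the reads were mapped.

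The pair with the most counts shows how alike the copies are. The coding sequence of AT2G07671, the nuclear counterpart of ATMG01080 (subunit 9 of the membrane-embedded F0 part of ATP synthase), lies at chr2:3251856-3252113 on the minus strand of TAIR10.1. It is identical to 258 bases of the mitochondrial sequence at positions 270961 to 271218, minus strand, and capitals mark the 225 bases that fall in the annotated mitochondrial atp9 gene:
AT2G07671 coding: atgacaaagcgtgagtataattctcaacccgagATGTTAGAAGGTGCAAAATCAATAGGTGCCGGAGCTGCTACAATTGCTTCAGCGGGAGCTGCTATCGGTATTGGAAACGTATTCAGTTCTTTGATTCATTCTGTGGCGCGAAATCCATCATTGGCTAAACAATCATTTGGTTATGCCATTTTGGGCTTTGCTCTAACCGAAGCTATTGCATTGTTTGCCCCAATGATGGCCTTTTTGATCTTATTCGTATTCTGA

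Over this stretch the 2 genomic sequences give no base by which reads could be told apart, and whether edited positions of transcripts do so was not tested. AT2G07698, the counterpart of ATMG01190 (ATP synthase subunit 1, the alpha subunit of the catalytic F1 part), differs from the mitochondrial sequence at a single base over 2665 aligned bases. The 41 bases around that difference are shown from the nuclear gene, chr2:3361908-3361948 on the plus strand of TAIR10.1, and from the minus strand of the RefSeq mitochondrial sequence, positions 69178 to 69218, with the base that differs in capitals:
AT2G07698 copy: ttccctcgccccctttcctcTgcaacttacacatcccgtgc
AT2G07698 mitochondrial: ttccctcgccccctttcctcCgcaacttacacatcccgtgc

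The libraries held between 11660970 and 17768334 counts. HSP21, a plastid small heat shock protein used as a check of treatment, stood at 1299, 1406 and 457 CPM (counts scaled to a common library total with TMM factors) in HS libraries, against 0.0925, 0 and 0 CPM in CK libraries. HSP101 was the other of the 2 check genes. Both rose in HS vs CK, with log2 fold changes between 1.60 and 14.5. In PW vs CK 1 of them rose, and the values ran between −0.139 and 4.12. Leaf mesophyll markers (6 genes) summed to 79073 to 96251 CPM in PW, 34656 to 44860 CPM in HS and 28044 to 35484 CPM in CK. Floral markers (5 genes) summed to 3.08 to 23.5 CPM in PW, 1.57 to 4.69 CPM in HS and 1.61 to 27.4 CPM in CK. Root markers (5 genes) summed to 1.16 to 41.2 CPM in PW, 1.07 to 17.6 CPM in HS and 24.0 to 36.7 CPM in CK, where the peroxidase gene PRX33 carried the high values, while the root hair genes EXPA7 and COBL9 had 1 count each over all libraries. The part of other tissues in the values below was not tested.

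A pair of HS libraries stood apart. HS replicate 3 was lower than HS replicates 1 and 2 for most mitochondrial genome genes. Over the 35 tested genes other than ATMG00020, ATMG00030 and ATMG01390, the CPM in HS replicate 3 divided by the mean of the other 2 HS libraries had a median of 0.451, was under 1 in 34 genes and under 0.5 in 23, and ran between 0.245 (ATMG00665) and 1.03 (ATMG00090). The same ratio had a median of 1.0 over all 18952 tested genes of the table and was 0.338 for HSP21. HS replicate 2 was far higher than the other HS libraries for ATMG00020, ATMG00030 and ATMG01390, which are described separately.

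The share of library counts on all 146 mitochondrial genome genes was small in every library. It was 0.00651% (95% Wilson interval 0.00608% to 0.00698%), 0.00861% (0.00811% to 0.00913%) and 0.00617% (0.00574% to 0.00663%) in PW libraries 1 to 3. In HS libraries it was 0.0572% (0.0559% to 0.0584%), 0.127% (0.125% to 0.129%) and 0.0336% (0.0325% to 0.0346%). In CK libraries it was 0.0200% (0.0194% to 0.0207%), 0.0164% (0.0158% to 0.0171%) and 0.0166% (0.0159% to 0.0173%). The intervals cover counting error only. The 3 regimes did not overlap: the mean share was highest in HS, at 0.0727% ± 0.0487, against 0.0177% ± 0.00201 in CK (SD, n = 3 each; 2-sided exact permutation test, p = 0.1, the smallest p that 3 against 3 libraries can give). PW libraries averaged 0.00710% ± 0.00132, below CK (exact permutation test, p = 0.1, n = 3 each). Without HS replicate 2 the difference between HS and CK was 0.0277 percentage points, compared with 0.0550 with all libraries. In leaf RNA, fewer mitochondria or cells of a type and fewer transcripts in each cannot be told apart.

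**Figure D1:**
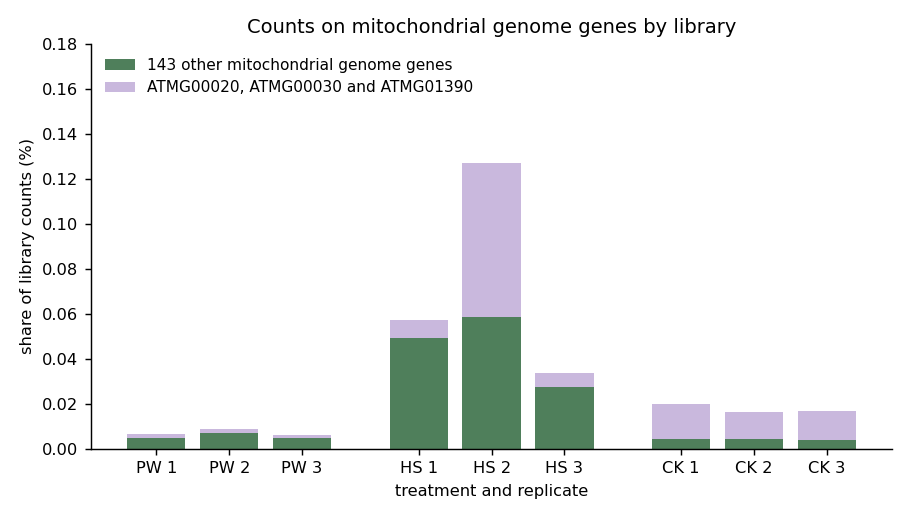
Share of each library's counts, in percent, that fell on mitochondrial genome genes, for the PW, HS and CK replicates. Each bar stacks ATMG00020, ATMG00030 and ATMG01390 (light) on the 143 other genes (dark). The dark part is between 0.0274% and 0.0586% in HS libraries and at most 0.00692% in every PW and CK library, and the light part makes up most of the CK bars and of the HS 2 bar.

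ATMG00020, ATMG00030 and ATMG01390 held most of the counts of mitochondrial genome genes in CK. They made up 26.6%, 19.6% and 24.5% of these counts in PW libraries, 13.6%, 53.9% and 18.4% in HS libraries and 78.1%, 74.5% and 76.1% in CK libraries. The direction of the total in PW therefore rests on them. Without these 3 genes the share averaged 0.00545% ± 0.00127 in PW and 0.0451% ± 0.0161 in HS, against 0.00418% ± 0.000207 in CK (SD, n = 3 each), so that HS exceeded CK 10.8-fold and PW was 0.00127 percentage points above CK rather than below it. Both of these differences had no overlap between libraries and the smallest possible exact permutation p of 0.1. The choice of these 3 genes was made after their values were seen.

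In HS, the mitochondrial genome genes were higher than in CK nearly throughout. Of the 38 tested genes 35 rose, that is, they changed at least 2-fold with an adjusted p below 0.05 in edgeR's quasi-likelihood test, 0 fell and 3 did neither. Over all tested genes of the table, 11.3% rose and 10.5% fell in this comparison. Among the 23 genes that pass the filter without HS libraries, 20 rose. The 0 that fell stayed at 0 at an unadjusted p below 0.05, and DESeq2 called 35 higher and 0 lower, with no p for ATMG00020 and ATMG00030. The median log2 fold change was 3.49 over the 38 genes, 3.16 over those 23 and 0.03 over all tested genes. The fold changes ran between −0.059 (ATMG00030) and 6.26 (ATMG00830), and the genes that did not pass were ATMG00020, ATMG00030 and ATMG01330. HS libraries were all above CK libraries in 35 of the 38 genes and in 20 of those 23, compared with 29.7% of all tested genes. Leaving out an HS library left 27 of the genes tested, and 23 (without HS 1), 24 (without HS 2) or 24 (without HS 3) of them passed. Without HS 2 this number comprised 22 higher genes and 2 lower ones.

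**Figure D2:**
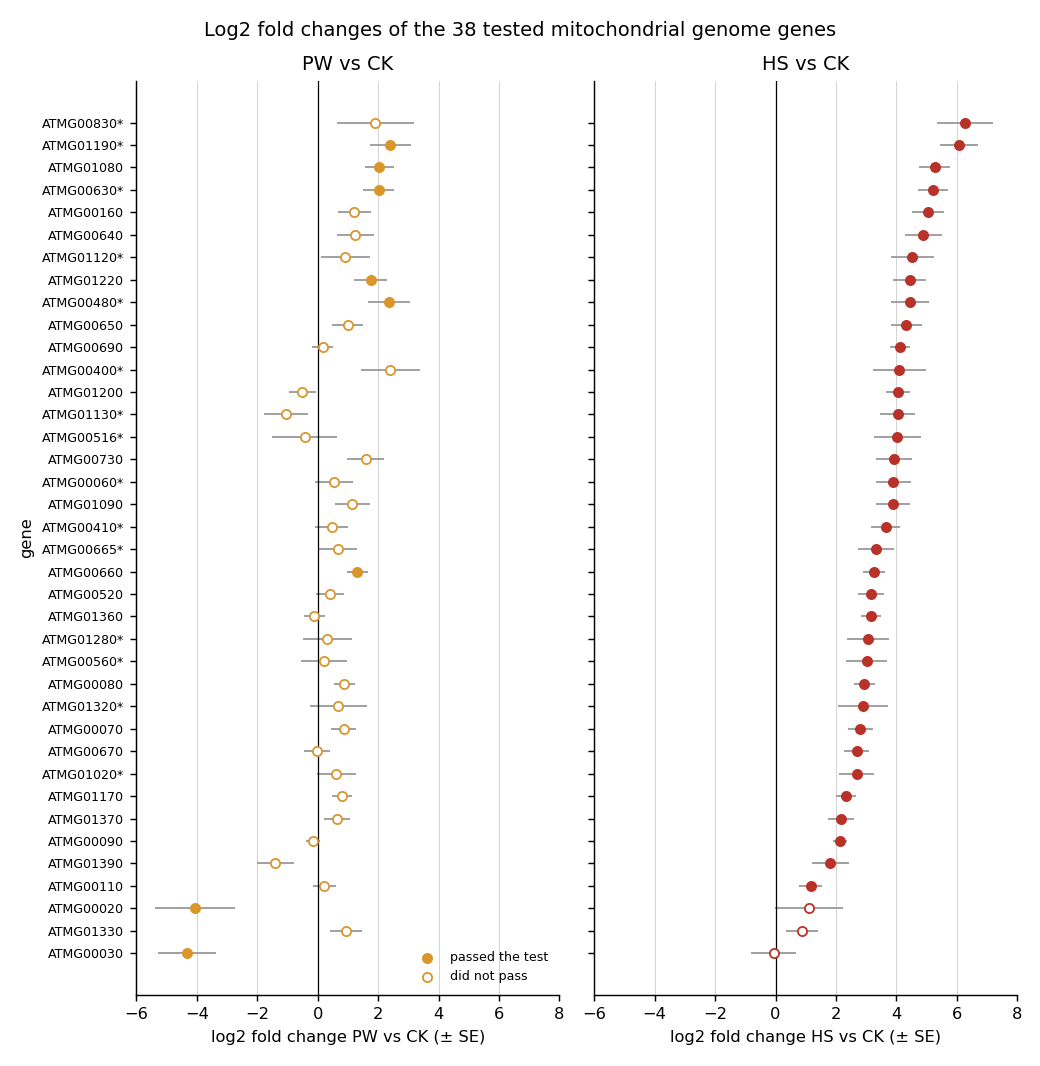
Log2 fold changes of the 38 tested mitochondrial genome genes, PW vs CK on the left and HS vs CK on the right, with bars of 1 standard error. Filled points passed the test, open points did not, and an asterisk marks the 15 genes that passed the count filter only through HS libraries. In HS vs CK 35 points are filled, all above 0, whereas in PW vs CK 6 filled points lie above 0 and 2 below.

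ATP synthase, the enzyme that makes ATP from the proton gradient of the inner membrane, had 5 genes with a product note, and all 5 were tested and rose in HS. ATMG00410, ATMG00480 and ATMG01190 passed the count filter only through HS libraries and were bound to be higher there, which leaves ATMG01080 and ATMG01090. Of these, ATMG01090 is counted as an ATP synthase gene by its note alone. ATMG01080 (F0 subunit 9, whose copies form the rotating ring of the membrane part) had the most counts of them, with 83, 150 and 110 counts in PW libraries, 1653, 1688 and 529 in HS libraries and 50, 51 and 43 in CK libraries. This is 10.9 ± 3.69 CPM in PW and 102 ± 54.7 CPM in HS, against 2.66 ± 0.316 CPM in CK (SD, n = 3 each). Every HS library exceeded every PW library, and every PW library exceeded every CK library. The log2 fold change was 5.26 ± 0.51 (SE; adjusted p = 0.000197) in HS vs CK, a 38.4-fold difference, and 2.04 ± 0.48 (adjusted p = 0.0119) in PW vs CK.

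ATMG01190 (subunit 1) had 8, 10 and 8 counts in PW libraries, 159, 166 and 77 in HS libraries and 1, 6 and 1 in CK libraries. Its level was low in all but the HS libraries, and the groups did not overlap. The log2 fold change in HS vs CK was 6.07 ± 0.63 (SE; adjusted p = 0.000250), and in PW vs CK it was 2.40 ± 0.68 (adjusted p = 0.0256). The comparisons with CK rest on 8 CK counts in all, 6 of them in CK 2, and without CK 2 the log2 fold changes became 7.38 for HS and 3.71 for PW.

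ATMG00410 (ATPase subunit 6-1, the part of the proton channel beside the ring) had 4, 8 and 3 counts in PW libraries, 60, 68 and 39 in HS libraries and 9, 7 and 3 in CK libraries. Only the HS libraries were high, and PW and CK overlapped. Its log2 fold change was 3.65 ± 0.49 (SE; adjusted p = 0.000744) in HS vs CK and 0.46 ± 0.53 (adjusted p = 0.544) in PW vs CK. ATMG00480 (F0 subunit 8) had 4, 6 and 3 counts in PW libraries, 27, 29 and 11 in HS libraries and 2, 1 and 1 in CK libraries. Here the PW libraries lay between the others without overlap, and the log2 fold change was 4.44 ± 0.63 (SE; adjusted p = 0.000971) in HS vs CK and 2.36 ± 0.69 (adjusted p = 0.0301) in PW vs CK.

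The best single alignment of AT2G07777, the nuclear counterpart of ATMG01090, covered 59.3% of its length. It lay on a mitochondrial stretch in which no annotated gene was listed. The annotated atp9 gene lies outside this stretch, in the one that matches AT2G07671. Whether the rest of AT2G07777 matches the mitochondrial sequence was not examined. ATMG01090, whose nuclear counterpart is noted as ATP synthase 9 mitochondrial, had 22, 30 and 22 counts in PW libraries, 247, 273 and 71 in HS libraries and 13, 26 and 17 in CK libraries. In CPM the PW libraries were all above the CK libraries, at 1.88, 2.89 and 2.26 CPM against 0.601, 1.49 and 1.09 CPM. The log2 fold change in PW vs CK, 1.15 ± 0.56 (SE), did not pass (adjusted p = 0.152), whereas that in HS vs CK, 3.89 ± 0.56, did (adjusted p = 0.00106).

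**Figure D3:**
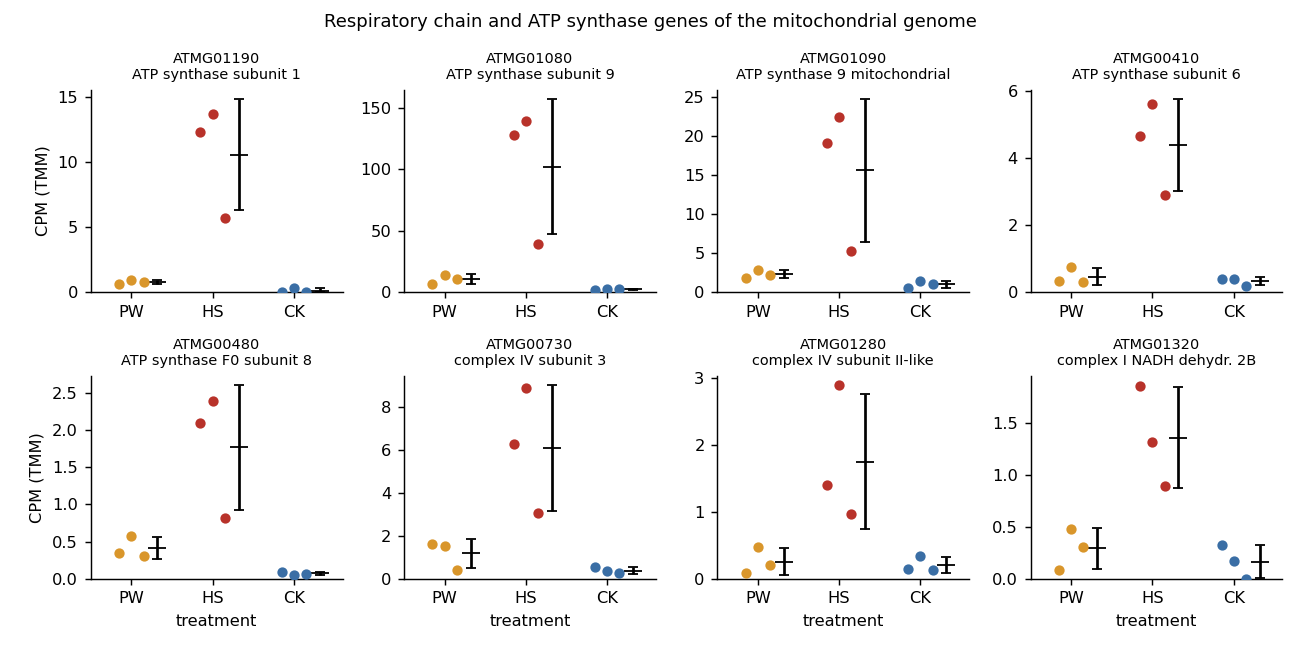
CPM of the 8 tested mitochondrial genome genes noted as subunits of ATP synthase, complex IV or complex I, by treatment. Points are the 3 libraries of each treatment, and the black bar is the mean ± SD, ended at 0 where it would go below. In each panel the HS points lie above all PW and CK points, and HS replicate 3 (the rightmost HS point) is the lowest of the 3 HS points. ATMG01190, ATMG00410, ATMG00480, ATMG01280 and ATMG01320 passed the count filter only through HS libraries and were bound to be higher there.

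Cytochrome c oxidase, complex IV of the chain, passes electrons to oxygen. Both genes noted for it were tested and rose in HS, but ATMG01280 passed the count filter only through HS libraries and was bound to be higher there. ATMG00730 (subunit 3) had 19, 16 and 4 counts in PW libraries, 81, 108 and 41 in HS libraries and 12, 6 and 4 in CK libraries. HS libraries stood above the rest, while a PW library fell within the CK range. The log2 fold change was 3.92 ± 0.60 (SE; adjusted p = 0.00142) in HS vs CK and 1.59 ± 0.61 (adjusted p = 0.0777) in PW vs CK. The nuclear counterpart of ATMG01280, AT2G07695, matched a mitochondrial stretch annotated as the open reading frame ORF291. ATMG01280, noted as similar to cytochrome c oxidase subunit II, had 1, 5 and 2 counts in PW libraries, 18, 35 and 13 in HS libraries and 3, 6 and 2 in CK libraries. PW and CK overlapped, and the log2 fold change was 3.05 ± 0.69 (SE; adjusted p = 0.00835) in HS vs CK and 0.31 ± 0.81 (adjusted p = 0.794) in PW vs CK.

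NADH dehydrogenase, complex I, is the entry point of electrons from NADH. Of the 3 genes noted for it only ATMG01320 (NADH dehydrogenase 2B) was tested, again only because of the HS libraries, with 1, 5 and 3 counts in PW libraries, 24, 16 and 12 in HS libraries and 7, 3 and 0 in CK libraries. Its log2 fold change was 2.89 ± 0.81 (SE; adjusted p = 0.0208) in HS vs CK and 0.69 ± 0.94 (adjusted p = 0.609) in PW vs CK. Without CK replicate 2 the value in HS vs CK, 2.88, no longer passed (adjusted p = 0.0723). The 2 genes noted for complex III had no count in any library, and none of the 3 noted for cytochrome c maturation or the 4 noted for ribosomal proteins was tested.

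For several of these genes the counts lay on the nuclear counterpart instead. Among the 55 pairs of a mitochondrial genome gene and its noted nuclear gene, the mitochondrial one had no count and the nuclear one did in 15, the reverse held in 12, both had counts in 21 and neither did in 7. ATMG00220 (apocytochrome b, the core subunit of complex III) had 0 counts, while AT2G07727, identical to it over 3243 aligned bases of chromosome 2 (3449534 to 3452776, plus strand, TAIR10.1), had 20, 27 and 11 counts in PW libraries, 66, 88 and 35 in HS libraries and 11, 6 and 3 in CK libraries. AT2G07727 rose by a log2 fold change of 3.78 ± 0.54 (SE; adjusted p = 0.00103) in HS vs CK and of 2.32 ± 0.54 (adjusted p = 0.0117) in PW vs CK. AT2G07741, by contrast, had 0 counts although its 1158 bases are identical to the mitochondrial sequence, and all counts of that pair were on ATMG00410. How the authors' counting treated reads that match more than 1 locus is not given in the sources used here, so counts of a pair are given below as a sum.

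The sums were higher in HS as well. The pair of ATMG01080 and AT2G07671 summed to 13.9, 24.2 and 15.0 CPM in PW libraries, 204, 239 and 64.3 CPM in HS libraries and 5.50, 5.85 and 4.92 CPM in CK libraries, with an HS mean 31.1 times the CK mean. The pair of ATMG01190 and AT2G07698 summed to 2.22, 4.24 and 2.27 CPM in PW libraries, 90.8, 107 and 41.3 CPM in HS libraries and 2.96, 2.24 and 2.56 CPM in CK libraries. The HS mean of this pair was 30.8 times the CK mean, but the PW mean was only 1.13 times it and the PW and CK libraries overlapped. The increase of ATMG01190 in PW was thus not seen in the pair, of which AT2G07698 held most counts and had a log2 fold change of −0.23 ± 0.46 (SE; adjusted p = 0.729) in PW vs CK.

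Over 18 pairs with at least 100 counts in all, the HS mean was between 2.23 (ATMG01330 and AT2G07808) and 56.6 (ATMG00620 and AT2G07722) times the CK mean. Of these pairs 13 reached 100 counts only with the HS libraries, so the cut favoured pairs that are high there. The other 5 reached it in PW and CK libraries alone, and in them the HS mean was 2.23 to 31.1 times the CK mean, with no overlap between HS and CK libraries. The pair of ATMG00730 and AT2G07687 is not among these 5 but among the 13, for which the cut favoured high HS counts. It summed to 2.05, 2.21 and 0.515 CPM in PW libraries, 8.92, 11.8 and 4.17 CPM in HS libraries and 0.647, 0.516 and 0.447 CPM in CK libraries, an HS mean 15.4 times the CK mean. Ribosomal protein S7, a protein of the small mitochondrial ribosomal subunit, was counted on AT2G07696 only, with 0.171, 0.385 and 0.515 CPM in PW libraries, 1.47, 2.64 and 0.967 CPM in HS libraries and 0.185, 0.459 and 0.128 CPM in CK libraries.

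**Figure D4:**
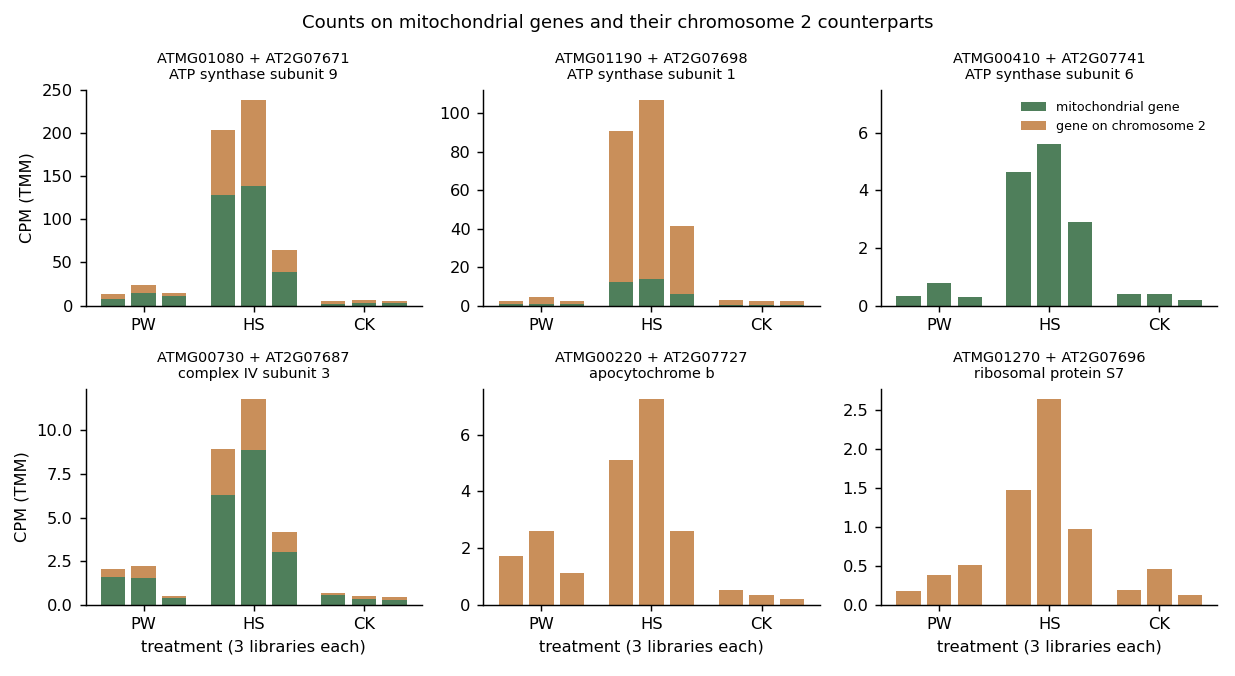
CPM of 6 pairs of a mitochondrial genome gene (green) and its noted counterpart on chromosome 2 (brown), stacked for each of the 3 libraries of PW, HS and CK. The HS bars are the tallest of each panel, and the part of each colour differs between pairs, from all on ATMG00410 to all on AT2G07727 and AT2G07696.

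Genes without a noted nuclear counterpart were higher in HS as well. Of the 26 tested genes in no note 18 pass the count filter without HS libraries, and 16 of these rose in HS vs CK, with a median log2 fold change of 2.87. Of the 12 in a note 5 pass it without HS libraries, and 4 of these rose, with a median of 3.92. The others passed only through HS libraries and were bound to be higher there. Only sequence identity of noted genes was examined, and whether the 26 have a copy elsewhere in the nuclear genome was not tested. The largest fold change was that of ATMG00830, one of the genes that passed only through HS libraries, which had 1, 2 and 0 counts in PW libraries, 34, 30 and 16 in HS libraries and 0, 1 and 0 in CK libraries. With 1 CK count, the ratio of HS to CK was 114 (95% counting interval 19.8 to 4550). Of the 35 tested genes other than ATMG00020, ATMG00030 and ATMG01390, 34 rose in HS, the exception being ATMG01330.

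ATMG01130 and ATMG01200, also without a product note, had the lowest log2 fold changes of PW vs HS after ATMG00020. ATMG01200 had 7, 8 and 5 counts in PW libraries, 228, 238 and 106 in HS libraries and 18, 20 and 11 in CK libraries. Its log2 fold change was 4.06 ± 0.39 (SE; adjusted p = 0.000187) in HS vs CK, −0.50 ± 0.44 (adjusted p = 0.416) in PW vs CK and −4.56 ± 0.42 (adjusted p = 0.000218) in PW vs HS. ATMG01130 had 3, 1 and 2 counts in PW libraries, 92, 128 and 32 in HS libraries and 10, 7 and 5 in CK libraries. Both were high in HS alone, ATMG01130 having passed the filter only through HS libraries, and the log2 fold change of ATMG01130 was 4.04 ± 0.57 (SE; adjusted p = 0.000959) in HS vs CK, −1.05 ± 0.72 (adjusted p = 0.301) in PW vs CK and −5.09 ± 0.66 (adjusted p = 0.000941) in PW vs HS.

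The 108 genes that were not tested are too low to be read singly, but their summed counts followed the same order in HS. They summed to 51, 72 and 38 counts in PW libraries, 273, 320 and 163 in HS libraries and 69, 50 and 61 in CK libraries. As CPM this is 4.35, 6.93 and 3.91 CPM in PW, 21.2, 26.4 and 12.1 CPM in HS and 3.19, 2.87 and 3.90 CPM in CK. HS stood above the rest without overlap (exact permutation test against CK, p = 0.1, n = 3 each).

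In prolonged warming most mitochondrial genome genes did not pass the test against CK. Of the 38 tested genes 6 rose (ATMG01190, ATMG00480, ATMG01080, ATMG00630, ATMG01220 and ATMG00660), 2 fell (ATMG00030 and ATMG00020) and 30 did neither. Over all tested genes of the table, 8.82% rose and 7.60% fell. Among the 23 genes that pass the filter without HS libraries, 3 rose and 2 fell. The median log2 fold change was 0.68 over the 38 genes and −0.04 over all tested genes. It was above 0 in 29 of the 38 genes and below 0 in 9, and above 0 in 16 and below 0 in 7 of those 23. The HS libraries bear on this comparison through the filter, the TMM factors, the shared estimate of spread and the set of genes over which p was adjusted.

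The calls in PW vs CK depended on single libraries more than those in HS vs CK. The number that passed was 6 without PW 1, 2 without PW 2, 5 without PW 3, 3 without CK 1, 4 without CK 2, 3 without CK 3, 6 without HS 1, 8 without HS 2 and 12 without HS 3. ATMG01080 and ATMG00030 passed in all 9 of these fits. ATMG01190 lost its call without PW 2 (2.28, adjusted p = 0.0732), PW 3 (2.40, 0.0591), CK 1 (1.92, 0.0846) or CK 3 (2.09, 0.0848). ATMG00480 lost it without PW 2 (2.04, adjusted p = 0.0975), CK 1 (2.57, 0.0708), CK 2 (2.22, 0.0922) or CK 3 (2.29, 0.0878). ATMG01220 (1.76 with all libraries) lost it without HS 1 (1.76, adjusted p = 0.0520), PW 1 (1.79, 0.0639), PW 2 (1.64, 0.0986), PW 3 (1.85, 0.0644), CK 2 (1.56, 0.113) or CK 3 (1.62, 0.110), and with library sizes in place of TMM scaling (1.34, 0.0668). ATMG00660 (1.32 with all libraries) lost it without any PW or CK library other than PW 1, with log2 fold changes of 1.13 to 1.32 and adjusted p values of 0.0537 to 0.0773, and fell under the 2-fold threshold with library sizes alone (0.89). ATMG00630 (2.02 with all libraries) lost it without PW 2 (1.52, adjusted p = 0.0601), CK 1 (1.61, 0.0533) or CK 2 (2.06, 0.0511). ATMG00020 lost it when any PW or CK library was left out, with log2 fold changes between −4.12 and −3.97. A test against a 2-fold change, glmTreat in edgeR, called 0 genes in PW vs CK, with 5 higher and 2 lower at an unadjusted p below 0.05. DESeq2 called 7 higher and 0 lower, but gave no p for ATMG00020 and ATMG00030, the 2 genes that fell in the main fit.

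Between the elevated temperature treatments, the mitochondrial genome genes were lower in PW than in HS. Of the 38 tested genes 0 rose, 34 fell and 4 did neither (ATMG00110, ATMG00400, ATMG01320 and ATMG01330). Over all tested genes of the table, 6.92% rose and 7.57% fell. At an unadjusted p below 0.05 the count of higher genes was still 0, and DESeq2 called 0 higher and 32 lower, with no p for ATMG00020 and ATMG00030. Among the 23 genes that pass the filter without HS libraries, 21 fell. The median log2 fold change was −2.79 over the 38 genes and −0.02 over all tested genes. Without HS 2 the number that passed was 22, and leaving out any other library gave 24 to 34.

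The genes noted for ATP synthase and complex IV fell here as well. Of these, ATMG00410, ATMG00480, ATMG01190 and ATMG01280 passed the count filter only through HS libraries and were bound to be higher there. ATMG01080 had 7.09, 14.4 and 11.3 CPM in PW libraries and 128, 139 and 39.4 CPM in HS libraries, and fell by 3.23 ± 0.46 on the log2 scale (SE; adjusted p = 0.00149). ATMG01190 fell by 3.67 ± 0.54 (adjusted p = 0.00173), ATMG00410 by 3.19 ± 0.49 (adjusted p = 0.00211) and ATMG01090 by 2.74 ± 0.54 (adjusted p = 0.00617). The log2 fold change of ATMG00480, −2.08 ± 0.54 (adjusted p = 0.0214), no longer passed without PW 1 (−1.96, adjusted p = 0.0592) or PW 3 (−1.93, adjusted p = 0.0698). For ATMG00730 the value was −2.33 ± 0.56 (adjusted p = 0.0155), and it did not pass without HS 2 (−1.95, adjusted p = 0.0556). For ATMG01280 it was −2.74 ± 0.72 (adjusted p = 0.0223), which did not pass without PW 1 (−2.30, adjusted p = 0.0610) or PW 3 (−2.62, adjusted p = 0.0731). All 3 comparisons draw on the same 9 libraries and are therefore not independent of each other.

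ATMG00020, ATMG00030 and ATMG01390 stood apart from the other tested genes. ATMG00020 had 40, 40 and 38 counts in PW libraries, 168, 4586 and 105 in HS libraries and 1488, 988 and 937 in CK libraries. CK was high and even, PW was uniformly low, and HS held 1 very high library with a pair of libraries below CK. Its log2 fold change was −4.05 ± 1.33 (SE; adjusted p = 0.0450) in PW vs CK and 1.10 ± 1.13 (adjusted p = 0.460) in HS vs CK, and without HS 2 that in HS vs CK was −2.56. In PW vs HS it was −5.16 ± 1.38 (adjusted p = 0.0238), and −1.49 without HS 2. This call was lost without PW 1 (−5.09, adjusted p = 0.0720), PW 2 (−5.18, 0.0701) or PW 3 (−5.19, 0.0790), with only PW and HS libraries in the fit (−5.14, 0.0631) and with glmTreat (0.102).

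ATMG00030 followed the same pattern, with 6, 7 and 13 counts in PW libraries, 66, 480 and 49 in HS libraries and 397, 313 and 217 in CK libraries. It fell by 4.33 ± 0.97 on the log2 scale (SE; adjusted p = 0.00988) in PW vs CK. In HS vs CK the log2 fold change was −0.059 ± 0.75 (adjusted p = 0.957) with all libraries and −1.92 without HS 2 (adjusted p = 0.00573). ATMG01390 had 165, 169 and 130 counts in PW libraries, 837, 3615 and 567 in HS libraries and 890, 644 and 586 in CK libraries. It passed in HS vs CK at 1.81 ± 0.61 (SE; adjusted p = 0.0419), but not without HS 2 (0.48, adjusted p = 0.102), nor without any 1 PW or CK library, where the value stayed between 1.77 and 1.85 and the adjusted p between 0.0562 and 0.116.

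Counts of a nuclear ribosomal RNA moved with ATMG00020 and ATMG00030, and in part with ATMG01390. AT3G41768, 1 of 4 nuclear ribosomal RNA genes listed and annotated as 18S, had 111, 64 and 198 counts in PW libraries, 286, 15266 and 548 in HS libraries and 8351, 5268 and 4029 in CK libraries. Like ATMG00020 and ATMG00030, it was low in PW, high in CK and far higher in HS 2 than in the other HS libraries, which were below CK. ATMG01390 shared the low PW and the high HS 2, but in CPM its other HS libraries were above the CK libraries. AT2G07739, the chromosome 2 counterpart of ATMG00370, showed the same outlying library, with 1, 0 and 0 counts in PW libraries, 0, 126 and 2 in HS libraries and 10, 6 and 9 in CK libraries. The part of ribosomal RNA content in the values of ATMG00020, ATMG00030 and ATMG01390 was not tested. The other tested genes did not share the pattern: their summed level was 49.6, 85.1 and 57.3 CPM in PW, 526, 611 and 238 CPM in HS and 36.0, 38.3 and 35.0 CPM in CK, with the untested genes included.

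**Figure D5:**
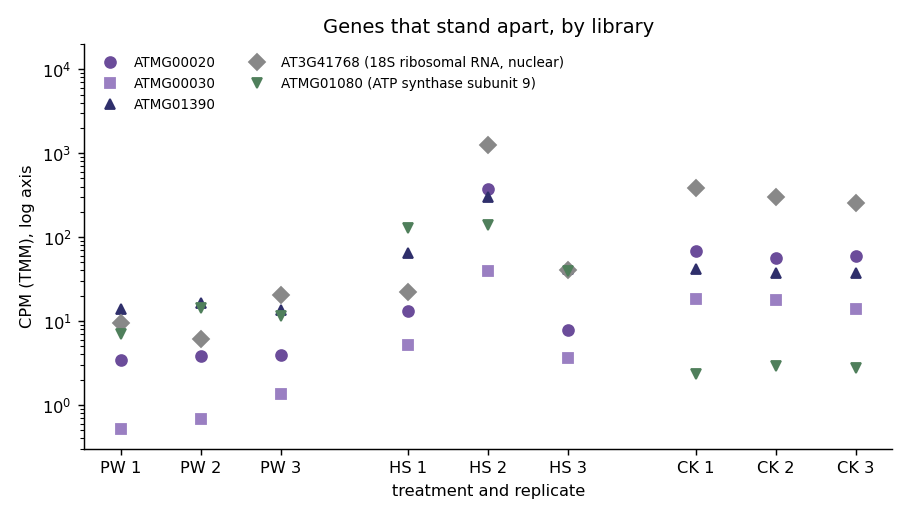
CPM on a log axis of ATMG00020, ATMG00030 and ATMG01390, of the nuclear 18S ribosomal RNA gene AT3G41768 and of ATMG01080, in each PW, HS and CK library. The ribosomal RNA gene and the first 2 genes are lowest in PW, high in CK and highest in HS 2, whereas ATMG01080 is lowest in CK and about equal in HS 1 and HS 2.

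Genes on and beside the chromosome 2 copy were described as a list of 131 identifiers between AT2G07660 and AT2G07799, of which 36 were tested. In HS vs CK 29 rose and 1 fell, with a median log2 fold change of 2.98. The gene that fell was MCM5 (AT2G07690), a nuclear gene of the DNA replication helicase that lies in this range, with −1.61 ± 0.46 (SE; adjusted p = 0.0222). In PW vs CK 2 rose and 1 fell (median 0.31), and in PW vs HS 0 rose and 26 fell (median −2.40), with 1 higher at an unadjusted p below 0.05 in edgeR. Over all tested genes of the table, 11.3% rose and 10.5% fell in HS vs CK. The same shares were 8.82% and 7.60% in PW vs CK, and 6.92% and 7.57% in PW vs HS. Within the list, AT2G07786 had the largest fold change in HS, with 2, 2 and 9 counts in PW libraries, 80, 88 and 38 in HS libraries and 0, 0 and 2 in CK libraries, a ratio of HS to CK of 147 (95% counting interval 40.0 to 1218). AT2G07786 passed the count filter only through HS libraries and was bound to be higher there. How many of the 36 passed only that way was not counted.

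Nuclear genes for subunits of the respiratory complexes and ATP synthase, chosen by product description, did not show the increase. They include complex II, for which no mitochondrial genome gene was noted. Over all tested genes of the table, 11.3% rose and 10.5% fell in HS vs CK. The same shares were 8.82% and 7.60% in PW vs CK, and 6.92% and 7.57% in PW vs HS. Of 68 subunit genes tested, 1 rose and 18 fell in HS vs CK, and the median log2 fold change was −0.57. In PW vs CK 1 rose and 20 fell, with a median of −0.73, and in PW vs HS 0 rose and 2 fell, with a median of −0.09 (5 higher and 10 lower at an unadjusted p below 0.05). Without complex II, 1 of 57 rose and 16 fell in HS vs CK (median −0.55), and 1 rose and 17 fell in PW vs CK (median −0.60). By complex, the falls in HS vs CK were 9 of 25 in complex I, 2 of 11 in complex II, 2 of 7 in complex III, 1 of 9 in complex IV and 4 of 16 in ATP synthase. The single rise, in complex IV, was AT2G38780, annotated as a cytochrome c oxidase subunit, with 1.48 ± 0.29 (SE; adjusted p = 0.00412) in HS vs CK and 1.92 ± 0.29 (adjusted p = 0.00170) in PW vs CK.

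The largest fall was that of AT5G05370, a gene for subunit 8 of the cytochrome b-c1 complex (complex III). It had 84, 32 and 45 counts in PW libraries, 43, 43 and 41 in HS libraries and 634, 544 and 459 in CK libraries, and its log2 fold change was −3.18 ± 0.27 (SE; adjusted p = 0.000109) in HS vs CK and −2.59 ± 0.26 (adjusted p = 0.000336) in PW vs CK. Among the 16 tested nuclear genes for ATP synthase, AT5G59613 fell most in HS vs CK, by 2.18 ± 0.22 on the log2 scale (adjusted p = 0.000224). Whether mitochondrial and nuclear subunits differ in their response was not tested as a set. The 8 tested nuclear genes for mitochondrial ribosomal proteins had 0 calls in either direction in all 3 comparisons, and their log2 fold changes had medians of −0.37 (HS) and −0.49 (PW) relative to CK. In edgeR at an unadjusted p below 0.05, 2 were higher and 2 lower in HS vs CK, 2 lower in PW vs CK and 1 lower in PW vs HS.

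Of 13 nuclear genes for transcription, splicing and decay of mitochondrial RNA, all tested, 2 rose and 0 fell in HS vs CK (6 higher and 0 lower at an unadjusted p below 0.05), with a median log2 fold change of 0.40. They were RUG3, a factor needed for splicing of a complex I transcript, with 1.15 ± 0.23 (SE; adjusted p = 0.00486), and NMAT1, a nuclear maturase for group II introns, with 1.09 ± 0.23 (adjusted p = 0.00627). The polymerase RPOTM had a log2 fold change of 0.17 ± 0.10 (adjusted p = 0.197) in HS vs CK and −0.81 ± 0.10 (adjusted p = 0.000821) in PW vs CK, the second under the 2-fold threshold. The polymerase RPOTMP fell in PW vs HS by 1.16 ± 0.24 on the log2 scale (adjusted p = 0.00878). In PW vs CK only the RNA helicase gene PMH1 passed, with −1.36 ± 0.35 (adjusted p = 0.0172). For comparison, 11.3% of all 18952 tested genes rose and 10.5% fell in HS vs CK. These shares were 8.82% and 7.60% in PW vs CK, and 6.92% and 7.57% in PW vs HS. Whether the 13 genes as a set differ from these shares was not tested.

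The plastid genome, the other organelle genome of the leaf, did not follow the mitochondrial one. Of its 133 genes 82 were tested, and in HS vs CK 16 rose and 17 fell, and the median log2 fold change was −0.16. In PW vs CK 19 rose and 4 fell (median 0.57), and in PW vs HS 15 rose and 1 fell (median 0.60). Over all tested genes of the table, 11.3% rose and 10.5% fell in HS vs CK. The same shares were 8.82% and 7.60% in PW vs CK, and 6.92% and 7.57% in PW vs HS. Plastid genes took 0.792% to 1.22% of counts in PW libraries, 0.677% to 0.744% in HS libraries and 0.905% to 0.925% in CK libraries. HS libraries were thus below CK libraries in the plastid share and above them in the mitochondrial share, but with TMM factors the plastid levels of HS and CK libraries overlapped.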

How the data were processed

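Leaf RNA of 9 libraries (3 each of PW, HS and CK) was sequenced on an Illumina HiSeq instrument after treatment with a genomic DNA eraser. The authors removed adapter, poly-N and low-quality reads, used TopHat2 to map the remainder to TAIR10, and deposited raw counts per gene. The submitters' processing notes also name CASAVA 1.8 and HTSeq 0.6.1. Strand use, the treatment of reads with several matches, the annotation version and any poly(A) selection are not given in the sources used here.

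The fit took the 18952 genes that reached 10 counts in 3 or more libraries. They were fitted with edgeR 4.0.16 (TMM factors, quasi-likelihood F test, 1 coefficient per treatment over all 9 libraries), with Benjamini-Hochberg adjustment over all of them in R 4.3.3. Genes with an adjusted p below 0.05 and at least a 2-fold change passed. The script was tested on simulated data. Shares of counts were compared by an exact 2-sided permutation test (scipy 1.17.1). The p-values measure the spread between these libraries. Alternatives were other filters, DESeq2 1.42.0, other scalings, downsampling, fewer samples in the fit, a block, other fold thresholds and leaving out libraries. Restricting or dropping genes by the filter, or dropping ATMG00020, ATMG00030 and ATMG01390, was chosen after seeing the data.

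Genes named with values in every library were those noted as subunits of respiratory complexes or ATP synthase and the 3 largest rises and falls that passed in each comparison. ATMG01390 and NMAT1 were named after their values were seen. Of each list beside them at most 3 genes were named, chosen by size of change or counts, except for the polymerases, MCM5 and the ribosomal RNA gene. A part of the rule that needed gene lengths (RPKM) was not applied, and gene symbols of the study were not linked to identifiers. The genes and lists were chosen with earlier results of these data known. Sequences and coordinates come from RefSeq TAIR10.1.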

Additional observations from a re-analysis of the deposited data

How the results depend on the processing

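The following values are numbers of mitochondrial genome genes that passed, or log2 fold changes, under other settings. In HS vs CK, a minimum of 10 counts in every library gave 14 genes and a median of 2.90, the 23 genes that pass the filter without HS libraries gave 20, and leaving out 1 library gave 23 to 34 genes and a median of 3.01 to 3.80. In PW vs CK, where 8 passed, the stricter filter gave 3, glmTreat 0, genes in no nuclear note 4 and those 23 genes 5, and leaving out 1 library gave 2 to 12. Library sizes without TMM moved the median in PW vs CK to 0.26 and that of ATMG01280 to −0.10, while the median of all genes moved to −0.45 there, and to −0.15 and −0.26 in the HS vs CK and PW vs HS comparisons. In PW vs HS, the stricter filter gave 14, glmTreat 21 and those 23 genes 21, and leaving out 1 library gave 22 to 34. Leaving out 1 library moved ATMG00020 between −2.56 and 1.66 and ATMG00030 between −1.92 and 0.42 in HS vs CK, and ATMG00410 between −0.064 and 0.68 and ATMG01280 between −0.49 and 0.87 in PW vs CK. The share in PW minus that in CK became 0.00127 percentage points without ATMG00020, ATMG00030 and ATMG01390, and 0.00276 when they were left out and TMM factors used as well. Whether the replicate numbers pair the samples could not be decided. Of 9 same-number correlations 5 were above 0.1 (−0.512 to 0.430), and they compare deviations from means of only 3 libraries. With the replicate number as a block, 33 passed in HS vs CK, 9 in PW vs CK and 32 in PW vs HS, and ATMG00020 was at −0.48 in HS vs CK and, not passing, at −3.78 in PW vs HS (adjusted p = 0.0931). A stricter filter or a subset of genes leaves fewer genes that can pass. Why the numbers changed under the other settings, including when a library was left out, was not tested. DESeq2 gave no p for ATMG00020 and ATMG00030. Most genes named have under 100 counts per library outside HS, so that differences between PW and CK are limited by depth.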
